A study of Homo sapiens with 2 samples.

Results

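The genes described here are 10 imprinted genes, among the 27685 genes that were measured by RNA-seq in 2 lung cancer cell lines. They were chosen by symbol, with earlier results of these data known and selected on the measured difference between the cell lines, so that their levels are given as a description with no test. The band 11p15, near the tip of chromosome 11, holds 5 of the members, H19, IGF2, KCNQ1OT1, CDKN1C and PHLDA2. The other 5, MEG3, DLK1, PEG10, MEST and PEG3, lie elsewhere, on chromosomes 14, 7 and 19.

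The data comprised 1 library of H2087 cells and 1 library of H596 cells, both untreated established human cell lines that are labelled lung adenocarcinoma. The study used the RNA-seq of H2087 to choose highly expressed genes near its candidate variants, and its text does not describe H596. No treatment, genotype contrast or time course separated the 2 libraries. Each line had 1 library, so no value below has a replicate check, and a difference between the libraries cannot be told apart from one between the cultures or preparations.

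In an imprinted gene, the copy from one parent is silenced by a mark set in the germ line, so that normally a single parental copy is transcribed. H19, a long noncoding RNA, is normally transcribed from the maternal copy and IGF2, a fetal growth factor, from the paternal copy, and they share enhancers that an imprinting control region between them directs to one gene or the other. At the second domain of 11p15, KCNQ1OT1, a long noncoding RNA transcribed from the paternal copy, silences CDKN1C and PHLDA2 on that copy. Loss of imprinting of these genes has been described in many tumors. The present libraries give the total RNA of both parental copies, and no allele was measured.

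Levels are given in FPKM, fragments scaled by library size and transcript length, as deposited, together with the estimated read count. Brackets hold a 95% Wilson interval of the gene's share of all counts in its library, carried to FPKM, and it covers counting error only. Total counts were 46961500 in H2087 and 55387847 in H596. A difference is that of log2(FPKM + 1), H596 minus H2087, and a gene is counted as higher or lower in H596 where this reached 1, which is 2-fold, and its FPKM averaged at least 1 over both libraries. Of the 13048 genes with that mean, 18.2% were higher and 14.2% lower in H596, and 32.4% differed in either direction. With a count of 0, the level that 3 counts would give is stated as the limit.

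The sequences shown here are 2 start regions of MEST and the microRNAs that lie inside H19 and MEST. Of the 4 listed MEST starts, start 1 is shown because it held 95.4% of the gene in H596, and start 4 because it is the downstream start with the higher level in H2087. Each region holds 250 bases before and 50 bases from the listed start in the GRCh37 (hg19) reference, 5′ to 3′ on the strand of the gene, with the motif GGGCGG, the core of the binding site of SP1, in capitals. The first MEST region is chr7:130125766-130126065 and the second chr7:130131649-130131948, both on the plus strand.
MEST, start 1 of 4: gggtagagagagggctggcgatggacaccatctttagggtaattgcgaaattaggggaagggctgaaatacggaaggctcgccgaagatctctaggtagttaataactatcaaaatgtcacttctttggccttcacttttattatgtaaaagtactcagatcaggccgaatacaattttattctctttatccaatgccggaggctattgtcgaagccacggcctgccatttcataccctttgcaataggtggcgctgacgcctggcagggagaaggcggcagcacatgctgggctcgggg
MEST, start 4 of 4: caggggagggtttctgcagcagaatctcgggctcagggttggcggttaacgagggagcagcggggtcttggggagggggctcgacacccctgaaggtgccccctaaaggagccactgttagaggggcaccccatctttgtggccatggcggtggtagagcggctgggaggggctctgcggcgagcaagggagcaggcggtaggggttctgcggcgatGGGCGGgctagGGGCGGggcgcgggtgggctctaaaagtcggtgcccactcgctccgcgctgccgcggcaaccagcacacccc

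GGGCGG, read on both strands, was found at 2 places in the region of MEST start 4, beginning 33 and 22 bases before the start, and the region of start 1 did not hold these letters. In 34943 RefSeq promoter regions of the same length, 44.87% held GGGCGG at least once and 11.57% held TATAAA, read on both strands, which neither region held. The 2 motifs do not overlap in their letters. CpG dinucleotides, the sites of DNA methylation, numbered 13 in the region of start 1 and 22 in that of start 4, against a median of 14 over all promoter regions. Motif matches describe the letters and are not binding sites measured here.

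H19 and MEST each host a microRNA, shown here because the 2 host genes moved in opposite directions. The mature sequences are those of RefSeq (GRCh38.p14), with the seed, bases 2 to 8, in capitals. The 4 seeds differed from each other.
hsa-miR-675-5p (in H19): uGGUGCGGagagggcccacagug
hsa-miR-675-3p (in H19): cUGUAUGCccucaccgcuca
hsa-miR-335-5p (in MEST): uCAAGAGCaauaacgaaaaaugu
hsa-miR-335-3p (in MEST): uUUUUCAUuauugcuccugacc

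Mature microRNAs are not captured by libraries made from polyadenylated RNA, so their levels are unknown. The hairpin gene MIR675, of 73 bases, had a count of 1 in H596 and MIR335 had 0 in both libraries. In the GENCODE annotation of GRCh37, the MIR675 hairpin lies within an exon in 13 of 31 H19 transcripts, and in 10 of these it is exon 1. A start region of IGF2, KCNQ1OT1, CDKN1C, PHLDA2, PEG10, DLK1 and PEG3 was not used here.

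Of the 10 members, 2 were higher in H596 (H19 and IGF2), 3 were lower (PHLDA2, CDKN1C and MEST), 1 passed the filter on the mean but differed by less than 2-fold (PEG10), and 4 were under the filter (KCNQ1OT1, MEG3, DLK1 and PEG3). The 11p15 members went both ways, 2 higher and 2 lower of 4 that passed the filter. Of the members elsewhere 2 passed the filter, and 1 of these was lower. The median difference over all 5 members was -0.05 at 11p15 and -0.27 elsewhere, against 0.12 over the 13048 filtered genes and 0.00 over all genes listed. Since the members were chosen on this contrast, nothing is read from these counts against the background shares.

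**Figure D1:**
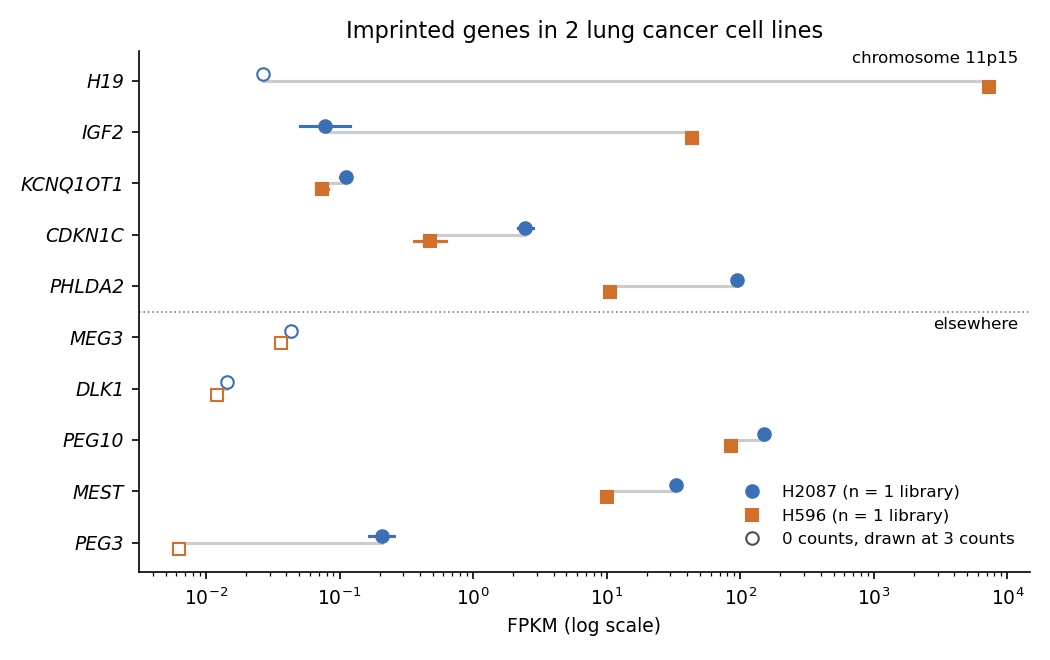
FPKM of the 10 members in the H2087 library (blue circles) and the H596 library (orange squares) on a log axis, 1 library per cell line. Horizontal bars are 95% Wilson intervals of counting error, and open symbols mark 0 counts, drawn at the level of 3 counts; H19 and IGF2 lie far to the right in H596, while every other detected member is at a lower FPKM in H596 than in H2087.

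H19 had 0 counts in H2087, where 3 counts would be 0.0267 FPKM. In H596 its count was 969312 and its level 7304 FPKM (7289 to 7318), the highest of all genes listed. This single noncoding RNA made up 1.75% of all counts in H596, and the gene ranked next, RNR2, was at 5677 FPKM. The gene lies at chr11:2016406-2022696 on the minus strand of hg19. The transcripts that begin at the main start took 99.2% of its FPKM (7248), and the single transcript from a start farther upstream took 0.766% (55.9). HOTS, a gene that overlaps H19 on the opposite strand, had 50 counts in H2087 and 160 in H596, so that its H596 count was 0.0165% of that of H19. It is not stated whether the counting used strand, and the counts of overlapping genes are therefore uncertain.

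IGF2, the growth factor, was at 0.0778 FPKM (0.0504 to 0.120) in H2087, from 20 counts. It was at 43.2 FPKM (42.4 to 43.96) in H596, from 12372 counts, which is 555 times the H2087 level (exact Clopper-Pearson interval of the split of counts, 359 to 909). The 2 neighbours were thus both near or at the limit in H2087 and both high in H596, but in H596 the H19 level was 169 times that of IGF2. The difference on the log2(FPKM + 1) scale was 12.83 for H19 and 5.36 for IGF2, and both understate the fold because H2087 was close to 0.

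IGF2 is transcribed from several promoters that are used at different stages of life, and 4 starts are listed. In H596 the transcript from the third start counted from upstream held 34.9 FPKM, 80.7% of the gene, and that from the fourth and most downstream start held 7.86 FPKM, 18.2%. The second start held 0.447 FPKM and the first, most upstream one 0.0121 FPKM from 4 counts. All 20 counts of H2087 were assigned to the third start. The 5 listed transcripts end at the same base, so their split rests on the authors' estimate from reads of the differing 5′ parts. IGF2-AS, the antisense gene, had 0 counts in H2087 and 37 in H596, and INS-IGF2, a readthrough transcript from the insulin gene, had 0 in both.

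The line labelled H2087 and the line labelled H596 also differed in cell type markers. Of the 4 squamous markers TP63, KRT5, KRT6A and DSG3, all 4 were higher in H596, where they ranged from 33.9 to 106 FPKM, and in H2087 they ranged from 0 to 1.48 FPKM with KRT5 and DSG3 at 0 counts. Of the 4 lung adenocarcinoma markers, NKX2-1 was at 110 FPKM in H2087 and 0.508 in H596, NAPSA at 21.9 and 0.0645, KRT7 at 791 and 608, and SFTPB at 0.123 and 0, the last a surfactant protein that is near the limit in both. The adenocarcinoma label of H596 is thus not borne out by NKX2-1 and NAPSA. Of the 4 epithelial markers, 3 were lower in H596, EPCAM (375 and 65.0 FPKM), KRT8 (2493 and 536) and KRT18 (3607 and 234), and CDH1 was at 52.3 and 59.6. Of 6 stromal genes, COL1A1 (3.89 and 0.916 FPKM) and DCN (0 and 9.77) were the only ones above 0.1 FPKM in either library, COL1A2 was at 0 in both, and the list summed to 3.97 and 10.7 FPKM. Of 4 blood genes, PTPRC, CD3E and HBB were at 0 counts in both libraries and LYZ had 9 counts in H596. The part of these differences in the H19 and IGF2 results was not tested. Of the genes with at most 3 counts in H2087, the 5 with the highest H596 level after H19 were CSTA (301 FPKM), TRIM29 (227), ANXA8 (113), KRT5 (106) and SLC1A3 (105).

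At the second domain of 11p15 the direction of PHLDA2 and CDKN1C was the opposite. PHLDA2, a small protein with a pleckstrin homology domain that restrains placental growth, was at 94.0 FPKM (91.2 to 96.9) in H2087 and 10.7 (9.82 to 11.6) in H596. The H2087 level was 8.81 times the H596 level (8.06 to 9.64). CDKN1C, the cyclin-dependent kinase inhibitor p57, was at 2.46 FPKM (2.15 to 2.82) and 0.475 FPKM (0.359 to 0.627), a ratio of 5.18 (3.78 to 7.23) on 211 and 49 counts. Its highest single transcript was at 1.78 and 0.427 FPKM, and at these low levels the difference on the log2(FPKM + 1) scale, -0.96, fell short of the 2-fold limit although the levels themselves differed by more.

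KCNQ1OT1, the noncoding RNA of this domain, stood at 0.111 FPKM (488 counts) in H2087 and 0.0735 FPKM (383 counts) in H596. Its level in H2087 was 1.51 times that in H596 (1.32 to 1.73), a ratio beyond counting error but under 2-fold. The FPKM is low per length because the listed transcript runs over 91671 bases, and it lies within KCNQ1, a potassium channel gene at 1.13 and 1.08 FPKM. KCNQ1 is transcribed from the other strand, and whether the counting used strand is not stated, so that the counts of KCNQ1OT1 are uncertain. As deposited, all 3 members of this domain had a lower level in H596, KCNQ1OT1 by less than 2-fold.

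Between 1.9 and 3.2 Mb of chromosome 11, 38 genes are listed, and 15 had a mean FPKM of at least 1. Besides H19 and IGF2, 2 of these were higher in H596, TNNT3, a troponin of fast skeletal muscle (0 counts against 28.4 FPKM), and MRPL23-AS1, a noncoding gene (0 counts against 3.06 FPKM). MRPL23, a mitochondrial ribosomal protein gene that lies between TNNT3 and MRPL23-AS1, was at 80.1 FPKM in H2087 and 43.3 in H596. The lower genes numbered 4 and stood next to each other among the genes that passed the filter: CDKN1C, SLC22A18AS (5.74 and 0.0971 FPKM), SLC22A18 (15.2 and 7.05 FPKM) and PHLDA2, which span 46.2 kb. SLC22A18, an organic cation transporter gene, is also imprinted, and its antisense partner overlaps it, so that their counts are uncertain.

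The other 7 genes differed by less than 2-fold. The genes between IGF2 and CDKN1C were CD81 (105 and 113 FPKM), TSSC4 (12.4 and 14.7) and KCNQ1. Beyond PHLDA2, NAP1L4 was at 53.8 and 55.6 FPKM, CARS at 56.0 and 65.4 and OSBPL5 at 6.43 and 6.24. The genes between IGF2 and CDKN1C and those beyond PHLDA2 that passed the filter thus differed by less than 2-fold. On the far side of H19, TNNT3 and MRPL23-AS1 had the direction of H19, while MRPL23 was at a lower level in H596 by less than 2-fold. LINC01219, on that side and under the filter, had 24 counts in H2087 and 4 in H596. ASCL2, an imprinted transcription factor gene of this cluster, had 0 and 9 counts. H19 and IGF2 lie 128 kb apart, and 934 kb separate the outer ends of H19 and PHLDA2.

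**Figure D2:**
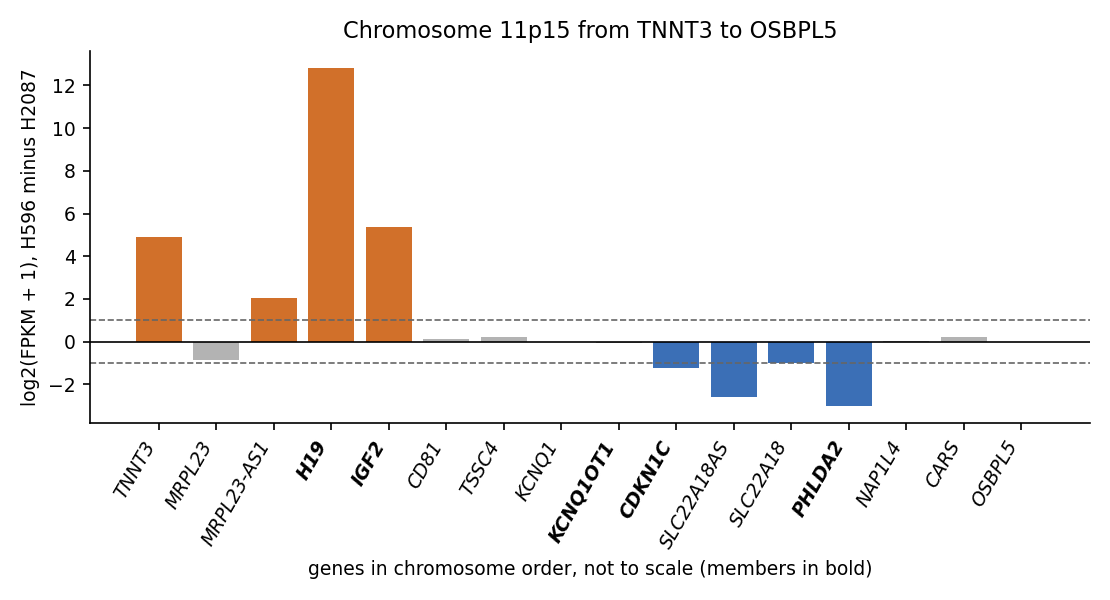
Difference of log2(FPKM + 1), H596 minus H2087, for the genes of chromosome 11 between 1.9 and 3.2 Mb at an FPKM of at least 1 in a library and for the members (bold), in chromosome order and not to scale. Orange and blue bars reach the 2-fold limit (dashed lines): H19 (12.83) and IGF2 (5.36) stand on one side with TNNT3 and MRPL23-AS1, and 4 neighbouring genes from CDKN1C to PHLDA2 on the other. The grey bars from CD81 to KCNQ1OT1 are near 0, and MRPL23 (-0.87), also grey, lies between TNNT3 and MRPL23-AS1.

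Elsewhere in the genome, MEG3 and DLK1 were not detected. DLK1, a transmembrane protein related to Notch ligands, and MEG3, a noncoding RNA, form the imprinted domain of chromosome 14. Both had 0 counts in both libraries, where 3 counts would be 0.0143 and 0.0121 FPKM for DLK1 and 0.0432 and 0.0366 for MEG3, taking the shortest transcript of each. Of the 97 genes listed over the 346 kb from DLK1 to MEG9, 96 had 0 counts in both libraries, and RTL1 had 2 counts in H2087. Most of these, 91, are microRNA or small nucleolar RNA genes, and 62.1% of all 2401 such genes in the table were at 0 in both. Among all genes, 30.4% were at 0 in both. Of the genes outside this stretch, 4 passed the filter, and 1 of them, SLC25A29, was higher in H596 (10.1 and 25.9 FPKM). The others were YY1 at 42.2 and 47.1 FPKM, WARS at 242 and 202 and WDR25 at 8.88 and 6.79. In contrast, LINC00523 and LINC02285 had 0 counts in both libraries.

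PEG10, a gene derived from a retrotransposon that is expressed in placenta and in several tumors, was the highest member in H2087, at 151 FPKM (149.95 to 153). In H596 it was at 85.3 FPKM (84.3 to 86.2). The ratio of 1.77, whose interval began at 1.75, was beyond counting error and under 2-fold under every setting tried. It was the single member that reached 100 FPKM in H2087, the level above which the study kept genes for the choice of its variants. Its neighbour SGCE, a sarcoglycan gene that is transcribed from the other strand and is also imprinted, was at 33.3 and 21.9 FPKM. None of the 4 genes of this window that passed the filter, PEG10 included, reached 2-fold on the log2(FPKM + 1) scale. CASD1 was at 5.90 and 2.76 FPKM, a ratio of the levels of 2.14 (1.93 to 2.36). Outside the window on the same chromosome, TFPI2, also reported as imprinted, was higher in H596 (5.85 and 23.7 FPKM). Of the 6 listed PEG10 transcripts 4 have the same length, start and end, and their deposited split is not reported here.

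MEST, a protein with an alpha/beta hydrolase fold, was at 33.2 FPKM (32.1 to 34.2) in H2087 and 10.0 FPKM (9.48 to 10.5) in H596, a ratio of 3.32 (3.12 to 3.53). Its starts differed unequally. The gene has 4 listed starts, of which the 2 upstream and the 2 downstream ones lie 4.98 kb apart, and the imprinted promoter is known to be a downstream one. From upstream to downstream, the starts held 10.6, 13.4, 4.53 and 4.60 FPKM in H2087. In H596 they held 9.54, 0.0849, 0 and 0.370 FPKM. The most upstream start was thus the closest between the lines, and the other 3 were at 0.370 FPKM or less in H596, start 4 with 53 counts, start 2 with 12 and start 3 with 0.

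Grouped, which was decided after these values were seen, the upstream starts were at 24.0 FPKM in H2087 and 9.63 in H596, a ratio of 2.50 (2.34 to 2.67). The downstream starts were at 9.12 FPKM (1069 counts) and 0.370 FPKM (53 counts), a ratio of 24.7 (18.7 to 33.1). The upstream ratio joins 2 unlike starts, start 1 (10.6 and 9.54 FPKM) and start 2 (13.4 and 0.0849 FPKM). A low level in H596 was thus not particular to the downstream starts. The downstream starts made up 27.5% of the gene in H2087 and 3.70% in H596. With the highest single transcript of each library in place of the gene, which was that of start 2 in H2087 (13.4 FPKM) and one of start 1 in H596 (9.54 FPKM), the log2 difference was -0.45 and did not reach 2-fold. The transcripts overlap over most of their length, so that the split depends on the authors' estimate, whose error is not given.

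**Figure D3:**
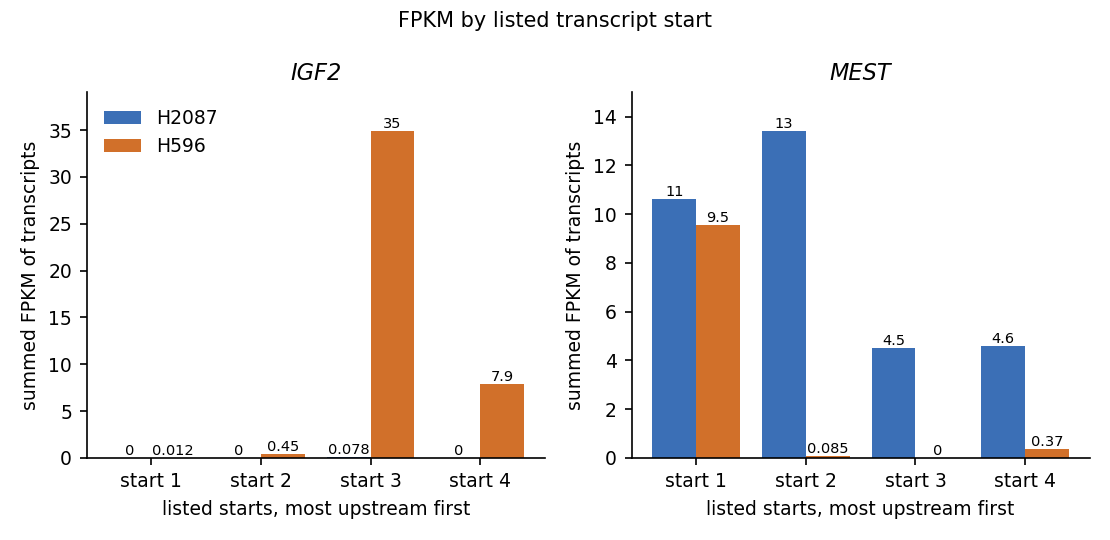
Summed FPKM of the listed transcripts that begin at each start of IGF2 (left) and MEST (right), ordered from the most upstream start, for H2087 (blue) and H596 (orange), 1 library each. IGF2 in H596 was assigned mainly to start 3 (34.9 FPKM), and MEST start 1 was similar in both libraries (10.6 and 9.54 FPKM) while starts 2 to 4 were at 0.370 FPKM or less in H596.

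CPA4, a carboxypeptidase gene in the MEST domain, went the other way, from 0.0295 to 18.9 FPKM. COPG2, which overlaps the end of MEST on the other strand, was at 16.8 and 15.5 FPKM. Farther away, the noncoding genes LINC-PINT (5.04 and 0.551 FPKM) and LINC00513 (3.92 and 0.199) were lower in H596.

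PEG3, a zinc finger gene, was at 0.206 FPKM in H2087 (83 counts, 0.166 to 0.256) and had 0 counts in H596. The H2087 level was at least 32.6-fold higher than that of 3 counts in H596, although the gene was under the filter. The zinc finger genes around PEG3 went both ways. ZNF667 (3.41 FPKM in H2087), ZNF667-AS1 (7.44), ZFP28 (2.11), ZNF471 (0.984) and ZNF835 (1.44) all had 0 counts in H596. In the other direction, ZNF543 was at 1.05 FPKM in H2087 and 3.23 in H596 and reached the 2-fold limit, and ZNF264 (1.08 and 3.01), ZNF583 (1.10 and 2.97) and ZNF805 (0.708 and 1.86) were at higher levels in H596 and under that limit on the log2(FPKM + 1) scale. With PEG3, 6 of the 20 genes of this window that had over 3 counts in H2087 were at 0 in H596, against 7.02% of all such genes. PEG3 was chosen on this contrast and the window was set around it, so nothing is read from this count against that share. The imprinted genes next to PEG3, ZIM2, MIMT1 and USP29, had 0 counts in both libraries. ZNF470 (1.03 and 0.528 FPKM) and ZNF71 (1.83 and 2.83), which lie between ZFP28 and ZNF835, were detected in both.

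Of 72 other genes reported as imprinted, 69 are listed and 38 passed the filter. Of these 11 were higher and 10 lower in H596, with a median difference of 0.01, against 0.12 over all filtered genes. Among all filtered genes, 18.2% were higher and 14.2% lower. The list was chosen with earlier results of these data known, so nothing is read from its counts against these shares. Of the 69 listed genes, 16 were at 0 counts in both libraries, against 30.4% of all genes. SNRPN, which encodes a splicing protein and lies in the Prader-Willi domain of chromosome 15, was at 70.6 FPKM in H2087 and 1.17 in H596, and SNURF, which shares its transcripts, at 44.2 and 8.24, so that their division is uncertain. SNHG14, the noncoding RNA that continues from them, was at 4.91 and 0.326 FPKM. MKRN3 of the same domain went from 0 to 359 counts (2.33 FPKM), and ATP10A from 2717 counts (10.8 FPKM) to 0.

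Genes at or close to 0 in H596 further included PLAGL1, a zinc finger transcription factor gene (6.94 FPKM in H2087, 0 counts in H596), FAM50B (11.9 and 0.0320 FPKM) and NAP1L5 (3.08 FPKM and 0 counts). The RB1 tumor suppressor gene was at 6.42 and 1.33 FPKM. On the higher side stood BLCAP (30.4 and 197 FPKM), TP73, a relative of p53 (0.913 and 6.30), and ZNF597 (0 counts and 2.66 FPKM). Large differences in both directions were thus also present among imprinted genes that were not members.

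Of 21 genes of the insulin-like growth factor axis, 14 passed the filter, and the median difference was -0.23, against 0.12 over all filtered genes. Among the 14, 4 were higher and 3 lower in H596, while 18.2% of all filtered genes were higher and 14.2% lower. The differences were mainly among the binding proteins, which hold the growth factors outside the cell. IGFBP3 was at 14.3 FPKM in H2087 and 951 in H596, IGFBP7 at 0.449 and 76.9, and IGFBP5 at 0.187 and 3.14. In contrast IGFBP4 was at 31.9 and 0.142 FPKM and IGFBP6 at 29.9 and 10.4. The receptors IGF1R (7.35 and 10.2 FPKM) and IGF2R (18.8 and 15.5), the latter of which removes IGF2, differed by less than 2-fold, and INSR, the insulin receptor, was at 0.664 and 4.20. Of the proteins that bind IGF2 mRNA, IGF2BP2 was lower in H596 (34.2 and 12.6 FPKM) and IGF2BP3 was at 48.2 and 42.1. IGF2BP1, which was under the filter, had 220 counts (0.522 FPKM) in H2087 and 0 counts in H596.

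Of 29 genes that set, keep or read imprints, 23 passed the filter, and the median difference was 0.48, against 0.12 over all filtered genes. Among the 23, 4 were higher and 0 lower in H596, while 18.2% of all filtered genes were higher and 14.2% lower. The 4 were TET2, which oxidizes methylated cytosine (1.23 and 7.69 FPKM), the chromatin remodeller ATRX (4.89 and 13.4), MBD3 (26.9 and 59.4) and the cohesin subunit STAG1 (6.20 and 13.6). After scaling by TMM or centring on the median of all genes, 2 of 23 were higher. CTCF, the insulator protein that binds the H19 control region, was at 17.8 and 19.8 FPKM, and DNMT1, which copies methylation at replication, at 41.7 and 41.8. ZFP57, which protects imprints in the embryo, CTCFL, DNMT3L and DPPA3 had 0 counts in both libraries.

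**Figure D4:**
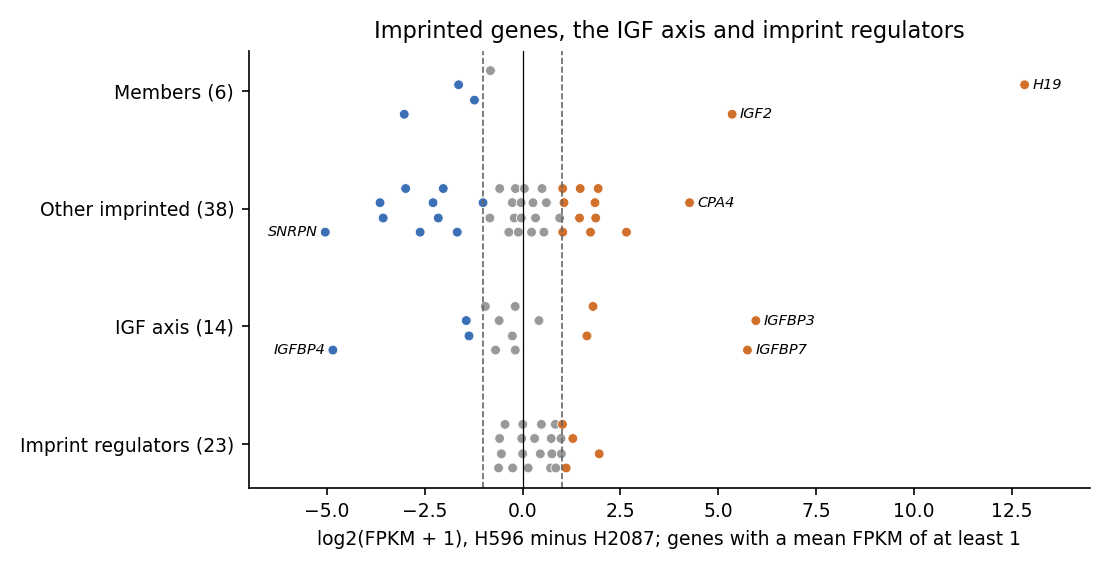
Difference of log2(FPKM + 1), H596 minus H2087, for genes whose FPKM averaged at least 1 (numbers in brackets) among the members, the other imprinted genes, the insulin-like growth factor axis and the genes that handle imprints; each point is a gene, height within a row has no meaning, and dashed lines mark 2-fold. H19 (12.83) lies beyond every other gene drawn, and the genes that handle imprints stay within 2 units of 0.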

How the data were processed

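RNA-seq of 2 libraries was used, 1 of H2087 and 1 of H596 cells. Libraries came from a stranded mRNA kit, reads were mapped on hg19, and RefSeq transcripts were quantified by the authors. The submitters' processing notes name bcl2fastq 1.8.4, Trimmomatic, HISAT2 2.0.5 and StringTie 1.3.3b. The deposited tables hold estimated counts (whole numbers; how they were derived, and whether strand was used, is not given in the sources used here) and FPKM values, which the authors scaled to transcript length and library size, for 27685 genes and 63714 transcripts. Estimated counts were used as deposited, for intervals and limits only. All per-sample columns belong to the 2 samples. For all 10 members the FPKM of the gene equalled the sum over its transcripts within 0.01.

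The members and gene lists were chosen with earlier results of these data known. Libraries were compared by log2(FPKM + 1) among genes whose FPKM averaged at least 1, with no test or p-value, since each cell line had 1 library. Named genes were the members and genes at 1 FPKM or more from 1.9 to 3.2 Mb of chromosome 11. To these were added up to 12 genes per list past 2-fold, by size of difference. RB1, MKRN3 and TFPI2, imprinted genes past 2-fold with smaller differences, were named outside this rule. The 5 genes most like H19 by level were also named. Within 500 kb of the other members, genes past 2-fold were named, and only a part of those under it. Genes of the lists and of these windows given under 2-fold, or at low counts, were chosen after their values were seen. Intervals were 95% Wilson and Clopper-Pearson (scipy 1.17.1), with 3 counts as the limit of a count of 0. If both mates of read pairs were counted, the intervals are too narrow. Total counts, 46961500 and 55387847, set the precision. Alternatives were a pseudocount of 0.1, TPM, TMM scaling (edgeR 4.0.16, R 4.3.3), centring, transcript values and other filters. Intervals and calls were tested on simulated data. Sequences came from RefSeq tables and the GRCh37 reference; 3 of 10 members had a promoter in the table. A start region of H19 is not reported here. Python 3.11.15, numpy 2.4.6, pandas 2.3.3 and matplotlib 3.10.9 were used.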

Additional observations from a re-analysis of the deposited data

How the results depend on the processing

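No value has a replicate check, depth limits CDKN1C, PEG3 and IGF2 in H2087, and the error of the transcript estimates is not given. No paired analysis was possible because H2087 and H596 had 1 library each, and leaving out a library leaves no comparison. No member past 2-fold changed direction under any alternative run; the median at 11p15 changed sign with 1 filter. Of the members, 5 reached 2-fold, and 3 did with the highest single transcript, where MEST (13.4 and 9.54 FPKM, of different transcripts) and CDKN1C (1.78 and 0.427 FPKM) did not on the log2(FPKM + 1) scale. PEG10 ranged from -0.64 (TPM) to -0.95 (TMM scaling) and stayed under 2-fold in every setting. Scaling moved the median of all filtered genes from 0.12 to 0.30 with TPM and to 0.00 with TMM scaling or centring. The median difference at 11p15, -0.05, was -0.28 with a pseudocount of 0.1, -0.17 centred and 5.36 over the 3 members with a mean FPKM of at least 10. Elsewhere, -0.27 was -0.83 with a pseudocount of 0.1, -0.53 with TPM, -0.39 centred and -1.23 over the 2 members with a mean FPKM of at least 10. With that filter, 8 in place of 21 other imprinted genes and 1 in place of 4 imprint regulators reached 2-fold, since fewer genes were compared. The imprint regulators numbered 8 with TPM, 2 with TMM scaling and 2 centred, and the cause of these changes was not tested beyond the shift of the median. The MEST start groups, added after seeing the data, were at -1.24 upstream and -2.89 downstream, and at -1.31 and -4.29 with a pseudocount of 0.1.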
